A study of Rattus norvegicus with 6 samples.

Results

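Genes of the interferon response and of antigen presentation by major histocompatibility complex (MHC) class I were followed in whole rat lung after inhalation of particles. The set was 39 genes chosen by name: transcription factors, RNA sensors, antiviral effectors, the ISG15 system with its feedback regulators, chemokines, interferon-gamma induced GTPases and the class I presentation machinery. Of these 39 genes, 36 had a probe on the array, and 35 passed the filter on dim probes and were measured, among 24986 features tested in all. Irf8, Xaf1 and Nlrc5 were not analysed here, and the probe of the chemokine Cxcl11 did not pass the filter. Each of the 35 measured genes gave a signal well above background on all 21 arrays used.

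Male Wistar rats, 9 weeks old, breathed an aerosol in a whole-body chamber for 6 hours a day on 5 days a week over 4 weeks. The air was clean for the negative control group. The other groups received fullerene C60, carbon atoms joined in a closed cage, or ultrafine nickel oxide (NiO), the positive control of the submitters. Right lungs, perfused with saline, were taken 3 days or 33 days (called 1 month) after exposure ended, and their RNA was hybridised to 1-colour oligonucleotide arrays. At 3 days, 3 control arrays, 2 arrays of C60 rats and 4 of NiO rats were used, and at 1 month every group had 4. No genotype other than the strain was given, and all groups shared the chamber and housing procedure. One array was read as 1 rat, from the n of the labels, and p-values rest on how far these arrays spread.

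Interferons are cytokines that put cells into an antiviral state. Type I interferons act through a complex that holds STAT2 and IRF9 and binds the interferon-stimulated response element (ISRE) in the promoters of antiviral genes, and interferon-gamma acts at gamma-activated sites (GAS). MHC class I molecules show peptides from inside the cell to cytotoxic T cells. TAP1 and TAP2 pump the peptides into the endoplasmic reticulum, tapasin (Tapbp) helps to load them, and beta-2-microglobulin (B2m) is the light chain of every class I molecule. In the lung, macrophages, epithelium and lymphocytes all can carry this response.

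The promoters below show where the motifs searched lie. They were chosen for holding a match, and belong to the 5 genes called in a comparison of a particle with control whose promoter held a match. Each runs from 250 bases before to 50 bases after the RefSeq start of the gene (build GRCr8), 5′ to 3′ on the strand of the gene, with matches in capitals. The ISRE core was searched as GAAANNGAA and the GAS as TTCNNNGAA, on both strands. The windows lie at chr10:5389324-5389623 (plus strand) for Socs1, chr2:243303791-243304090 (minus strand) for Ifi44, chr14:16006916-16007215 (plus strand) for Cxcl9, chr2:234005477-234005776 (plus strand) for Gbp2 and chr20:4668494-4668793 (minus strand) for Tap1.
Socs1: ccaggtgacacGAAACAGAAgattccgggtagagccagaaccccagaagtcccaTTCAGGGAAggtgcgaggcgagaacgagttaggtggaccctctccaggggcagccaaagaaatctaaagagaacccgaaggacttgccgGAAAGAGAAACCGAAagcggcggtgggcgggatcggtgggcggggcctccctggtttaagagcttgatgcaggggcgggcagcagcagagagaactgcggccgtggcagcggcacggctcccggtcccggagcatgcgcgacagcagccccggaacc
Ifi44: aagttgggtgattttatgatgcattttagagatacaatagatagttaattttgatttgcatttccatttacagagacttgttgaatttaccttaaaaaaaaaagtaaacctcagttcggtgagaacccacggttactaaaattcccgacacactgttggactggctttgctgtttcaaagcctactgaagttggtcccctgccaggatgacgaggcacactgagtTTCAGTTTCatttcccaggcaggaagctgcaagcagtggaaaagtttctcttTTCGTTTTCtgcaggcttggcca
Cxcl9: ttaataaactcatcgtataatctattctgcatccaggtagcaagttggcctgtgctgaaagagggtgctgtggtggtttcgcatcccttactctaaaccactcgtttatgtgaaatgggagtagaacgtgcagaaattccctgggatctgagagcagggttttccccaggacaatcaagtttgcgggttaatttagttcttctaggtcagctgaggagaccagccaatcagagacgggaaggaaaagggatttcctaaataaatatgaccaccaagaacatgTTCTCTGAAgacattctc
Gbp2: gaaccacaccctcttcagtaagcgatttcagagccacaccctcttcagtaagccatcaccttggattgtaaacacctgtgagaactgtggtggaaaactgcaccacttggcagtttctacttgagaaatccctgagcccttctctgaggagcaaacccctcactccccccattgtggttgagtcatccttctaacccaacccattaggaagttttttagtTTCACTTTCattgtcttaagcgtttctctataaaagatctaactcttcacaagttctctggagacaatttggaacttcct
Tap1: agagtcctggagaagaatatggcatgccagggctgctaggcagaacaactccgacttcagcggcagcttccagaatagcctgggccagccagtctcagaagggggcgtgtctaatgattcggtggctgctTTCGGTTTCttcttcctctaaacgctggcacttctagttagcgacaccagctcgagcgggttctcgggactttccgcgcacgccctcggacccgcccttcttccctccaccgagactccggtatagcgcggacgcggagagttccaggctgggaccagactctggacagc

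Socs1 held 3 ISRE cores, which began 239, 107 and 101 bases before the start, and 1 GAS 196 bases before it. The cores at 107 and 101 bases overlap each other by 3 bases and form 1 run of capitals. Ifi44 held an ISRE core 25 bases before the start and another 28 bases after it, Gbp2 had a core 30 bases before the start and Tap1 one 120 bases before it. Cxcl9 held no ISRE core in this window and 1 GAS, which began 33 bases after the start. RefSeq promoters were matched for 31 of the 39 listed genes. An ISRE core stood in 19 of these 31 (61.3%), against 9.71% of all 33469 promoters of the same length, and a GAS in 10 of 31 (32.3%) against 8.87%. A match is a run of letters, not a bound site, and the Ifit2 promoter was not among those matched.

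The class I probes are shown because RT1 genes, the rat class I genes, are close copies of each other and differ between rats. The probe of RT1-CE10 lies at chr20:3469045-3469104 and those of RT1-A2 at chr20:5024064-5024217 and chr20:5024199-5024258, as given in the array files for build rn4, on the plus strand. No letters are marked here.
RT1-CE10: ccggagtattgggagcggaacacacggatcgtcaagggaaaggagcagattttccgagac
RT1-A2, brighter probe: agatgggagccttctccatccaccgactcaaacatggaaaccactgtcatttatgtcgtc
RT1-A2, second probe: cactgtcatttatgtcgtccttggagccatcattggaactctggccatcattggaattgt

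Values below are log2 of the processed signal minus the 75th percentile of the array, called the log2 value. A gene was called at an adjusted p under 0.05 over all features, and its log2 fold change is given with its standard error (SE). The arrays had 57.4% to 78.3% of spots well above background. The lung markers fixed for this work were all measured (12 of 12), with a mean log2 value of 4.79 to 5.43 on every array, and the surfactant gene Sftpc lay between 8.55 and 9.61. NiO array 1 of 3 days stood apart: over all features its median distance to the other NiO arrays was 0.434 log2 units and to the controls 0.264, while NiO arrays 2 and 3 lay 0.446 and 0.462 from the controls. Control array 2 of 1 month lay 0.331 from the other controls of that time, against 0.176 to 0.259 for the rest. It was the highest of all 21 arrays for 16.8% of features and the lowest for 11.6%. This array enters every comparison with control at 1 month. Both C60 arrays of 3 days had a raised signal on negative control spots, 143 and 64.4 against 24.3 to 40.8 on the other arrays. Of the 4 C60 arrays of 3 days, arrays 1 and 2 were used, because the labels give n = 2 for that group and these arrays alone rebuilt the deposited C60 values (median absolute log2 difference 0.00082, against 0.109 for all 4). With all 4, Tapbp was lower after C60 at 3 days (-0.77; adjusted p = 0.0162). Then 4 genes in place of 1 were higher in NiO than in C60 at 3 days: Isg20 (0.60), Ifit3 (0.92), B2m (0.57) and Gbp2 (0.46). The share of all features called with all 4 is not given here. The change in count is therefore not read as a result about these genes. Each slide held 1 group and each scan day 1 time, so a group cannot be told apart from its slide, nor a time from its scan day. In whole lung, fewer cells of a type and less RNA per cell cannot be told apart.

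At 3 days after NiO, 2 of the 35 genes were higher than control and 1 was lower, against 11.1% and 7.86% of all features. Ifit2 and Ifi44 rose and Socs1 fell. Positive log2 fold changes were seen in 26 of 35, and the median of the 35 was 0.19, against 0.04 over all features. At 1 month after NiO, Tap1 rose and Cxcl9 and Gbp2 fell, so that 1 gene was higher and 2 were lower, against 11.9% and 18.9% of all features. The median was then -0.13, next to -0.12 over all features. These shares of the 35 genes lay below the shares of all features in both directions and at both times.

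After C60, no gene of the set was called at 3 days by limma, against 2.94% of all features higher and 1.99% lower. With unadjusted p-values under 0.05, 1 gene was higher (RT1-CE10) and 1 lower (Isg20), and the median was -0.04 against -0.03. At 1 month, Ifi35, RT1-CE10 and RT1-A2 rose and none of the 35 fell by limma (3 lower at an unadjusted p under 0.05), against 7.29% and 12.4% of all features, with a median of -0.12 against -0.09. The 3 called are 8.57% of the 35, near the background. Both particles were compared with the same control arrays at each time, so their results are not independent.

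Direct comparison of NiO with C60 called 1 gene higher at 3 days (Isg20) and none lower, against 5.05% and 2.72% of all features (by limma, 0 lower also at an unadjusted p under 0.05). At 1 month it called none higher (1 at an unadjusted p under 0.05) and 1 lower (Cxcl9), against 0.836% and 0.392%. The medians of the set in these comparisons were 0.13 and 0.00, and over all features 0.06 and -0.01. With quantile normalization, the median of all features moved by 0.14 in NiO against control and 0.13 in C60 against control at 1 month. The share of higher calls among all calls then went from 38.7% to 55.4% for NiO and from 37.0% to 55.3% for C60 at 1 month, and from 58.5% to 45.8% for NiO and 65.0% to 51.9% for NiO against C60 at 3 days. The directions of the members named as called above were the same under this scaling.

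**Figure D1:**
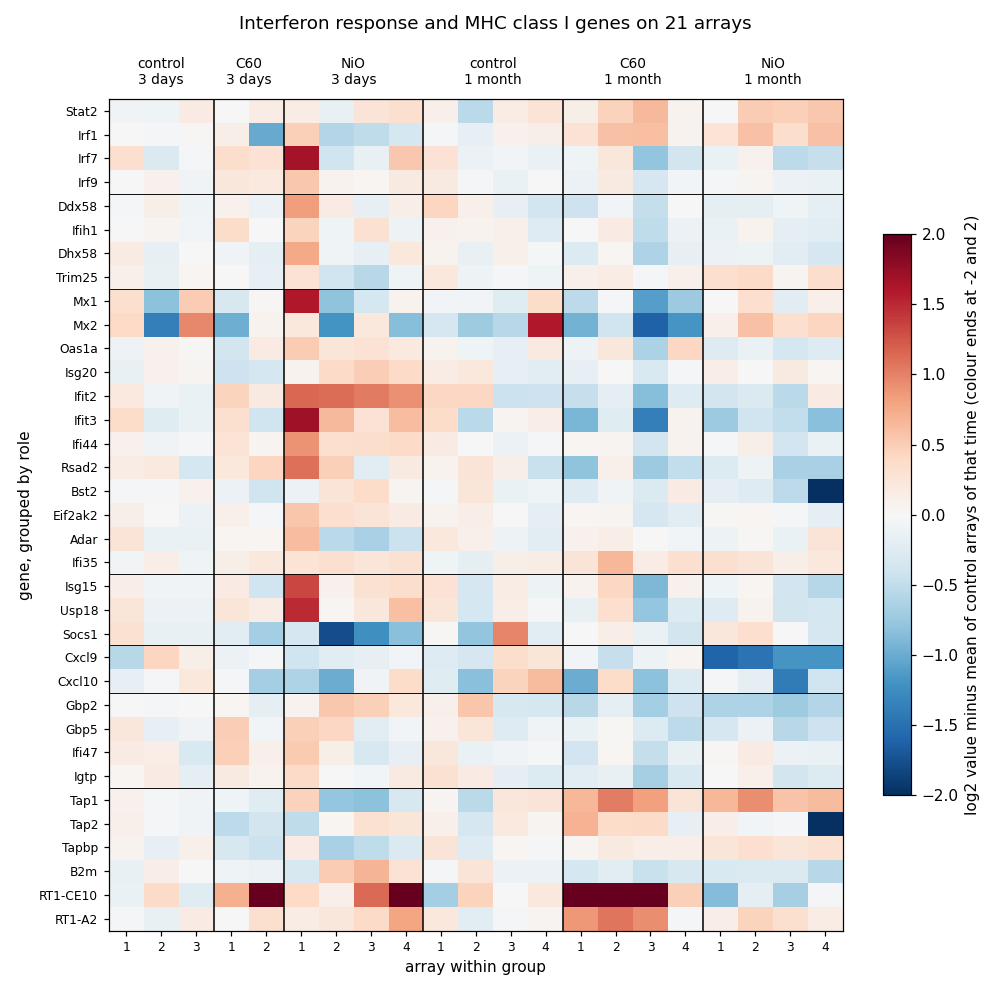
Log2 value of each of the 35 genes (rows, grouped by role) on each of the 21 arrays (columns), minus the control mean at that time; colours end at -2 and 2. NiO array 1 of 3 days is red for most interferon genes, and C60 array 3 of 1 month is blue for many of the same rows. On that NiO array, before the control mean was taken off, Irf7 read 4.31 (control mean 2.65) and Isg15 3.84 (control mean 2.51).

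The transcription factors of the response, Stat2, Irf1, Irf7 and Irf9, were not called in any comparison. Irf7, which drives type I interferon genes and is itself induced by interferon, had log2 values of 2.99, 2.35 and 2.61 on the control arrays and 4.31, 2.25, 2.50 and 3.19 on the NiO arrays of 3 days. Array 1 was the highest by over 1 log2 unit and the others lay around the controls, so the groups overlapped and the log2 fold change was 0.42 (SE 0.36; adjusted p = 0.422). Irf1, a factor that activates class I genes, read 0.77 to 0.81 in the controls of 3 days and -0.43 to -0.16 in the controls of 1 month. Stat2 likewise read -0.77 to -0.51 in the controls at 3 days and -2.04 to -1.22 at 1 month. Such differences between the times cannot be told apart from the scan day.

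The RNA sensors Ddx58 (RIG-I), Ifih1 (MDA5) and Dhx58 (LGP2), and Trim25, the ligase that activates RIG-I, were not called either. Their log2 fold changes lay between -0.19 and 0.24 for NiO at 3 days and between -0.26 and 0.08 for C60 at 1 month. Ddx58 read 1.21 on NiO array 1 of 3 days and 0.22 to 0.54 on the other 3, and Dhx58 read -1.15 there against -2.08 to -1.71. Both were thus highest on that array, as were all 4 sensors.

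Of the 12 antiviral effectors, 2 rose after NiO at 3 days (Ifit2 and Ifi44) and 1 rose after C60 at 1 month (Ifi35). The shares of all features higher there were 11.1% and 7.29%. Ifit2 encodes a protein that binds viral RNA and blocks translation. Its log2 values at 3 days were 1.18, 0.90 and 0.85 in control, 1.43 and 1.15 in C60 and 2.12, 2.09, 2.02 and 1.89 in NiO. All 4 NiO arrays lay above every control array and both C60 arrays used, while the C60 arrays not used read 1.98 and 1.93, above NiO array 4. The NiO arrays had a mean of 2.03 ± 0.11 (SD, n = 4) against 0.98 ± 0.17 (SD, n = 3). The log2 fold change was 1.05 (SE 0.22; adjusted p = 0.00446), the largest among the called members at that time. At 1 month the controls were split, at 2.13 and 2.12 on arrays 1 and 2 and 1.27 and 1.29 on arrays 3 and 4. NiO arrays then read 1.34, 1.42, 1.16 and 1.86. Array 3 lay below every control and the other 3 within their range, with a log2 fold change of -0.26 (SE 0.21; adjusted p = 0.343). A second, dimmer Ifit2 probe gave 0.13 for NiO at 3 days, and with the mean of both probes the log2 fold change was 0.59 (adjusted p = 0.101).

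Ifi44, an interferon-induced protein of the cytoplasm, read 2.47, 2.31 and 2.35 in control and 3.28, 2.71, 2.73 and 2.76 in NiO at 3 days. Every NiO array lay above every control array, and array 1 was the highest. Its log2 fold change against control was 0.49 (SE 0.15; adjusted p = 0.0337), and all 3 of its probes were higher (0.49, 0.46 and 0.30). The call was lost when any control array was left out (0.46 to 0.54; adjusted p = 0.0688 to 0.0975). At 1 month all 3 groups lay between 2.57 and 3.12.

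Ifit3, a partner of the other Ifit proteins, read -1.48, -2.09 and -1.99 in control and -0.17, -1.20, -1.58 and -1.23 in NiO at 3 days. The ranges touched, since NiO array 3 lay just under the highest control, and the log2 fold change of 0.81 was not called (SE 0.35; adjusted p = 0.103). At 1 month its values were -1.62, -2.53, -1.93 and -1.85 in control and -2.71, -2.37, -2.47 and -2.81 in NiO. C60 array 3 of 1 month was the lowest of all arrays at -3.35. Its change of effect between the times is given below.

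Isg20, an exonuclease that degrades viral RNA, read 2.40 and 2.45 in C60 and 2.87, 3.20, 3.31 and 3.20 in NiO at 3 days, with controls at 2.67, 2.89 and 2.87. The NiO and C60 arrays did not overlap, and the difference of 0.72 was called (SE 0.14; adjusted p = 0.00601). Against control neither particle was called, at 0.33 for NiO (adjusted p = 0.0676) and -0.38 for C60 (adjusted p = 0.171). Without C60 array 1 the difference was 0.69 (adjusted p = 0.0693), and without NiO arrays 2 and 3 it was 0.61 (adjusted p = 0.0519).

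Ifi35, an interferon-induced leucine zipper protein, was the effector that rose after C60 at 1 month. It read 1.26, 1.17, 1.46 and 1.49 in control and 1.60, 2.00, 1.49 and 1.67 in C60. C60 array 3 fell within the control range and array 2 was the highest. Against control the log2 fold change was 0.34 (SE 0.11; adjusted p = 0.0315). It was 0.24 without C60 array 2 (adjusted p = 0.112), and the call was also lost without C60 array 4 or control array 1 or 2 (0.29 to 0.35; adjusted p = 0.0507 to 0.104). NiO arrays of that time read 1.47 to 1.67 (0.23; adjusted p = 0.109).

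The effectors Mx1, Mx2, Oas1a, Rsad2, Bst2, Eif2ak2 and Adar were called in no comparison. Eif2ak2 gave 0.33 for NiO at 3 days without overlap with control (adjusted p = 0.0642). A second, dimmer Eif2ak2 probe, which did not stand for the gene, gave 0.96 there, also without overlap. Mx1, a GTPase that traps viral nucleocapsids, read 0.47 on NiO array 1 of 3 days and -1.93 to -1.05 on the other 3. Bst2, tetherin, which holds budding virus at the cell surface, read 6.45, 6.39 and 6.12 on NiO arrays 1 to 3 of 1 month and 4.47 on array 4. Its log2 fold change of -0.79 was not called (SE 0.30; adjusted p = 0.0542), and array 4 stood apart from the other 3.

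Isg15, a ubiquitin-like protein, and Usp18, the protease that removes it and dampens interferon signalling, were not called. Isg15 read 2.65, 2.45 and 2.44 in control and 3.84, 2.60, 2.82 and 2.87 in NiO at 3 days, and Usp18 reached 1.34 on NiO array 1 against -0.11 to 0.44 on the others. Their log2 fold changes were 0.52 (adjusted p = 0.223) and 0.59 (adjusted p = 0.145). A second, dimmer Usp18 probe, which did not stand for the gene, gave 1.11 for NiO at 3 days. It read -3.62, -3.77 and -4.00 in control and -2.04, -2.95, -3.04 and -2.69 in NiO, without overlap. Socs1, which blocks JAK kinases and so limits interferon signalling, fell after NiO at 3 days. It read -1.57, -2.02 and -2.02 in control and -2.21, -3.64, -3.09 and -2.70 in NiO, so every NiO array lay below every control array. The log2 fold change was -1.04 (SE 0.34; adjusted p = 0.0420). The call was lost without any 1 control array or without NiO array 2 or 3 (-1.12 to -0.80; adjusted p = 0.0764 to 0.156), and with normexp background correction the value was -0.35 (adjusted p = 0.170). At 1 month the value for NiO was 0.05, and control arrays spread from -3.20 to -1.43.

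**Figure D2:**
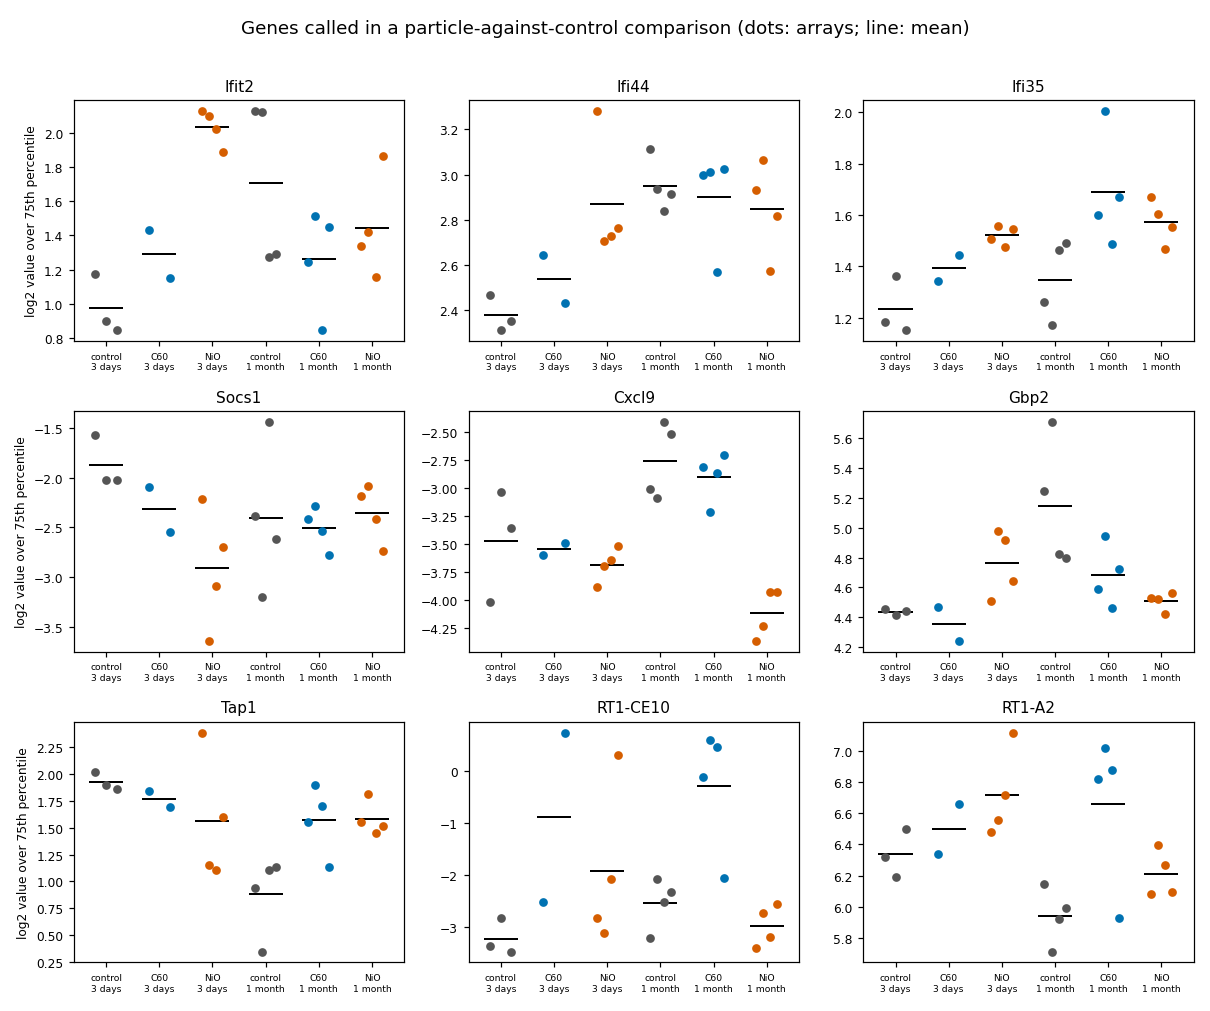
Log2 values (vertical axis) of the 9 genes called in a comparison of a particle with control, by group; dots are arrays and lines are group means. Ifit2 lies at 1.89 to 2.12 on the NiO arrays of 3 days, above the controls at 0.85 to 1.18, and Cxcl9 lies at -4.36 to -3.93 on the NiO arrays of 1 month, below every other array of that time.

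The chemokines Cxcl9 and Cxcl10 draw T cells and natural killer cells through their shared receptor, and Cxcl9 is induced mostly by interferon-gamma. At 1 month Cxcl9 read -3.01, -3.09, -2.41 and -2.52 in control, -2.82, -3.22, -2.87 and -2.71 in C60 and -4.36, -4.23, -3.93 and -3.93 in NiO. All 4 NiO arrays lay below all 8 others. It fell by 1.35 on the log2 scale against control (SE 0.20; adjusted p = 0.000285) and by 1.21 against C60 (SE 0.20; adjusted p = 0.00395). Both calls held when any 1 array was left out. The probe is dim, and with normexp, which lifts dim signals, the value against control was -0.71 (adjusted p = 0.00115). At 3 days NiO arrays lay at -3.88 to -3.52, within the controls (-0.21; adjusted p = 0.492). Cxcl10 ranged from -2.72 to -1.26 in control and from -3.29 to -1.93 in NiO at 1 month and was not called (-0.51; adjusted p = 0.314).

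Interferon-gamma itself (Ifng), singled out after its values were seen, was well above background on the 12 arrays of 1 month only. It fell after NiO there, by 0.76 on the log2 scale (SE 0.24; adjusted p = 0.0267), and C60 gave -0.64 (adjusted p = 0.0683). The Ifng probe is dim, with log2 values of -6.91 to -3.78 over all arrays used. It passed the filter through the groups of 1 month only. Its value with normexp is not given here, so the size of this fall is uncertain. Markers of natural killer and cytotoxic cells had a list mean of 1.06 to 1.35 on the control arrays of 1 month. It was 0.80 to 1.07 on the C60 arrays and 0.60 to 1.04 on the NiO arrays. Of these markers, 1 of 9 was lower after NiO (Gzmb, granzyme B, -0.57; adjusted p = 0.0414), against 18.9% of all features. No T cell marker was called there (0 of 9 higher or lower), with list means of -1.53 to -1.17 in control and -1.55 to -0.999 in NiO. The part of these cells in the Cxcl9 and Ifng values was not tested.

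The GTPases Gbp2, Gbp5, Ifi47 and Igtp are induced by interferon-gamma and attack the vacuoles of intracellular microbes. Gbp2 read 5.25, 5.70, 4.82 and 4.80 in control, 4.59, 4.95, 4.46 and 4.72 in C60 and 4.53, 4.53, 4.43 and 4.56 in NiO at 1 month. The NiO arrays were close together and below all controls, while controls 1 and 2 stood high. The log2 fold change was -0.63 for NiO (SE 0.17; adjusted p = 0.0106), a call kept without any 1 array, and -0.46 for C60 (adjusted p = 0.0589). At 3 days NiO arrays read 4.51, 4.97, 4.92 and 4.64 against 4.45, 4.42 and 4.44 in control, without overlap (0.32; adjusted p = 0.211). The other 3 were not called, with log2 fold changes of -0.34 to -0.23 for C60 at 1 month.

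The class I machinery held 6 measured genes. Tap1 read 0.94, 0.35, 1.11 and 1.14 in control, 1.55, 1.90, 1.70 and 1.13 in C60 and 1.55, 1.81, 1.45 and 1.52 in NiO at 1 month. Every NiO array lay above every control array, and control array 2 was the lowest. The log2 fold change was 0.70 for NiO (SE 0.24; adjusted p = 0.0360), and C60 gave 0.69 just past the threshold (adjusted p = 0.0516). The NiO call was lost without control array 1 or 2 or any 1 NiO array (0.52 to 0.74; adjusted p = 0.0543 to 0.133), and with quantile normalization (0.67; adjusted p = 0.0633). At 3 days the controls read 2.02, 1.90 and 1.86, and NiO arrays 2.38, 1.15, 1.11 and 1.60, above and below the controls (-0.37; adjusted p = 0.326).

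Tap2 was not called. It read 2.96, 2.77 and 2.78 on NiO arrays 1 to 3 of 1 month and 0.40 on array 4, which was the lowest of the 21 arrays. B2m read 7.42 to 8.43 over all arrays. Its NiO values of 1 month, 7.67, 7.68, 7.68 and 7.42, lay below the control values of 7.95, 8.23, 7.86 and 7.85 without overlap. The difference of -0.36 was not called (adjusted p = 0.0932). Its other probes, dimmer than this one, gave -0.01, -0.07 and 0.01 for NiO at 1 month. For C60 at 1 month they gave 0.05, -0.10 and 0.10, so the fall was seen on the brightest probe only. With quantile normalization B2m was called at 1 month, at -0.36 for NiO (adjusted p = 0.00792) and -0.32 for C60 (adjusted p = 0.0199).

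RT1-CE10 and RT1-A2, genes of the class I heavy chain, rose after C60 at 1 month. RT1-CE10 read -3.20, -2.07, -2.51 and -2.31 in control and -0.12, 0.58, 0.46 and -2.05 in C60. C60 arrays 1, 2 and 3 stood over 1 log2 unit above all controls, while array 4 lay at the highest control. The fit gave a log2 fold change of 2.24 (SE 0.73; adjusted p = 0.0398). It was lost without any 1 control array or without C60 array 1, 2 or 3 (1.95 to 2.39; adjusted p = 0.0535 to 0.112). High values of RT1-CE10 also stood on C60 array 2 (0.73) and NiO array 4 (0.31) of 3 days, next to -2.50 and -3.10 to -2.07 on the other arrays of those groups.

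RT1-A2 read 6.15, 5.71, 5.92 and 5.99 in control and 6.82, 7.02, 6.88 and 5.92 in C60 at 1 month. C60 array 4 again lay within the controls and the other 3 above them. In the fit, the log2 fold change was 0.72 (SE 0.20; adjusted p = 0.0202), and the call was lost without control array 2 or C60 array 1, 2 or 3 (0.60 to 0.67; adjusted p = 0.0565 to 0.0705). The second RT1-A2 probe, printed above, gave 0.40 there, and at 3 days it gave 1.54 for C60 where the brighter probe gave 0.16. It read 4.14, 5.77 and 4.49 on the controls of 3 days, against 6.32, 6.19 and 6.50 for the brighter probe. RT1 genes are near-identical copies with many alleles, so their values are uncertain, and the part of alleles in them was not tested.

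With the other class I genes of the RT1 complex that were listed, 15 were measured. This group was not one of the lists fixed by name, and it holds RT1-CE10 and RT1-A2, called above. Its genes are close copies, so their calls are not read as independent, unlike a share of separate features. After C60 at 1 month, 7 of 15 rose, against 7.29% of all features, with a median log2 fold change of 0.54 against -0.09 over all features. For RT1-CE2 the values were 6.55, 5.93, 6.20 and 6.33 in control and 7.14, 7.36, 7.21 and 6.35 in C60 (0.76; SE 0.19; adjusted p = 0.0142). C60 array 4 was the lowest C60 array for 11 of the 15, against 23.6% of all features, and array 2 was the highest for 14 of the 15, against 20.4%. Among the controls of 1 month, array 2 was the lowest for 9 of the 15, against 27.4% of all features. After NiO, 1 of the 15 was higher at each time, against 11.1% and 11.9% of all features. The medians of the 15 after NiO were 0.21 at 3 days and 0.16 at 1 month, against 0.04 and -0.12 over all features. Of B cell markers, 1 of 6 rose after C60 at 1 month (Cd79b, 0.74; adjusted p = 0.0100), and the list mean was -2.46 to -2.05 in C60 and -2.79 to -2.49 in control. Of T cell markers, 1 of 9 rose (Cd3e, 0.59; adjusted p = 0.0311), with list means of -1.38 to -0.97 and -1.53 to -1.17. Their part in the RT1 values was not tested.

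**Figure D3:**
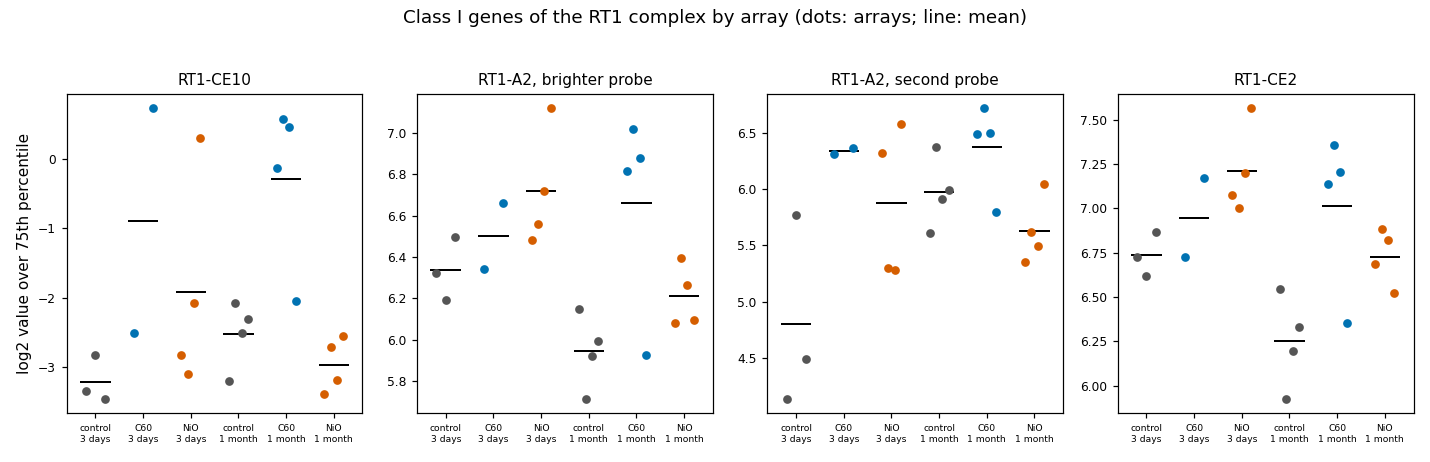
Log2 values (vertical axis, each panel with its own range) of RT1-CE10, of both RT1-A2 probes and of RT1-CE2 by group; dots are arrays and lines are group means. C60 arrays 1 to 3 of 1 month lie high in each panel (RT1-CE10 at -0.12 to 0.58), and C60 array 4 lies at the control level (RT1-CE10 at -2.05).

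The effect of NiO, taken as NiO minus control, differed between the times for 8 of the 35 genes: it was lower at 1 month for 6 and higher for 2, against 23.1% and 14.4% of all features. The median difference was -0.37 and that of all features -0.18. The largest were Ifit3, from 0.81 at 3 days to -0.61 at 1 month (difference -1.42; SE 0.47; adjusted p = 0.0266), and Ifit2, from 1.05 to -0.26 (difference -1.31; SE 0.31; adjusted p = 0.00570). Cxcl9 went from -0.21 to -1.35, Gbp2 from 0.32 to -0.63 and Ifi44 from 0.49 to -0.10, with differences of -1.14, -0.96 and -0.60. Tap1 and Tapbp moved the other way, from -0.37 to 0.70 and from -0.32 to 0.28, with differences of 1.06 and 0.60. For B2m the difference was -0.65 (adjusted p = 0.0408), but it was 0.02 with normexp, so its direction depended on the background correction. Its other probes went from 0.33 to -0.01, from 0.40 to -0.07 and from 0.04 to 0.01.

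Control arrays enter both sides of such a difference. For Tap1 the controls read 1.86 to 2.02 at 3 days and 0.35 to 1.14 at 1 month. For Tapbp the controls read 2.28 to 2.55 and 1.29 to 1.80, and the NiO arrays 1.80 to 2.61 and 1.79 to 1.88. Without NiO arrays 2 and 3 of 3 days the differences of Tap1 and Tapbp were 0.63 (adjusted p = 0.183) and 0.34 (adjusted p = 0.197). With quantile normalization, the median of all features moved by 0.21 in this comparison, the share of higher calls went from 38.5% to 59.9%, and the differences of Cxcl9 (-0.50), Ifit3 (-1.17), Ifi44 (-0.57) and Tapbp (0.62) were no longer called (adjusted p = 0.0542 to 0.170). The effect of C60 differed between the times for none of the 35 genes by limma (unadjusted p under 0.05 for 3 higher and 1 lower), against 4.23% and 6.20% of all features, with a median difference of -0.14 against -0.06. There the median of all features moved by 0.12 with quantile normalization, and the share of higher calls went from 40.6% to 52.0%.

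**Figure D4:**
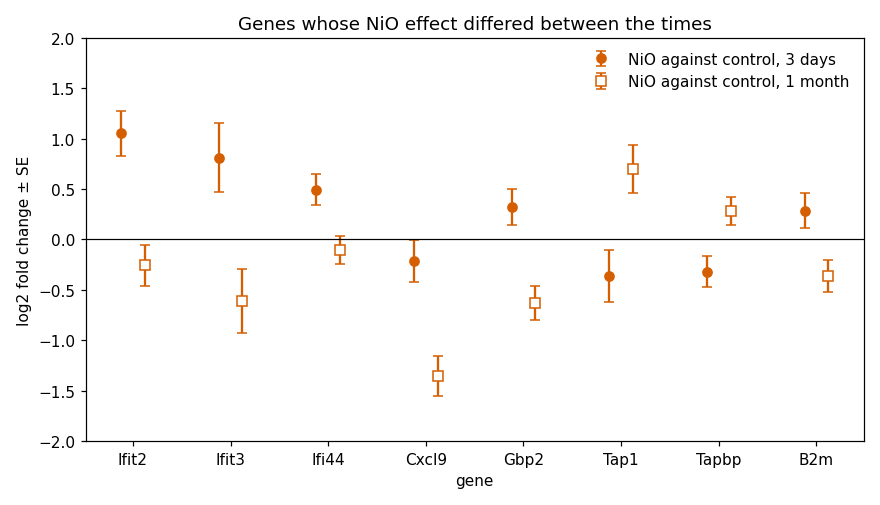
Log2 fold change of NiO against control (vertical axis, with SE) at 3 days (filled circles) and 1 month (open squares) for the 8 genes whose effect differed between the times. Ifit2 goes from 1.05 to -0.26 and Tap1 from -0.37 to 0.70.

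A pattern of single arrays ran through the interferon genes. NiO array 1 of 3 days was the highest NiO array for 23 of the 35 genes (65.7%), against 31.0% of all probes, and the highest of all 21 arrays for 19, against 8.22% of all features. By role it was highest in its group for 3 of 4 transcription factors, 4 of 4 sensors, 8 of 12 effectors, 3 of 3 genes of the ISG15 system and its feedback and 3 of 4 GTPases. It was highest for 2 of 6 class I genes and 0 of 2 chemokines, and lowest for 3 and 1 of these. This is the array that lay nearer to the controls than to its own group over all features. C60 array 3 of 1 month was the lowest of the 21 arrays for 14 genes, against 2.27% of all features, among them Mx1 at -2.89, Isg15 at 2.45 and Irf7 at 2.16. In the same group, array 2 was the highest for 26 of 35, against 20.4% of all probes. Among NiO arrays of 1 month, array 2 was the highest for 22 of 35, against 16.1% of all probes. The array was not used to form groups, and what lies behind these differences was not tested.

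Leaving out NiO array 1 changed the count at 3 days more than any other array of that group. There were then 4 genes higher (Ifit2 at 1.02, B2m at 0.49, Isg20 at 0.42 and Ifi44 at 0.36) and 5 lower (Socs1 at -1.27, Tap1 at -0.64, Adar at -0.54, Tapbp at -0.48 and Trim25 at -0.35), against 22.4% and 15.9% of all features. Without NiO arrays 2 and 3 instead, Ifit2 (1.03), Usp18 (1.05) and Ifi44 (0.64) were higher and none was lower, against 3.98% and 2.32%. Ifit2 and Ifi44 were thus called in either case, while Tap1 and Tapbp were called lower only in the former.

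Genes outside the set but in the same pathway were read from lists fixed by name. Of 38 other interferon-induced genes measured, 5 rose and 0 fell after NiO at 3 days, against 11.1% and 7.86% of all features, with a median of 0.15 against 0.04 over all features. The share that rose was thus near the background. Rtp4, a chaperone of receptors that interferon induces, read 2.17, 2.18 and 2.25 in control and 3.27, 3.27, 3.20 and 3.11 in NiO (1.01; SE 0.18; adjusted p = 0.00134), without overlap. At 1 month it fell after both particles, by 0.79 after NiO and 0.75 after C60, from control values of 3.96, 3.94, 3.59 and 3.48. Samhd1, which depletes nucleotides in infected cells, and Oas1i, of the family that activates RNase L, rose after NiO at 3 days by 0.78 and 0.92. At 1 month 1 of 38 rose and 4 fell after NiO, and 1 rose and 3 fell after C60. The shares of all features were 11.9% higher and 18.9% lower for NiO and 7.29% and 12.4% for C60. The medians were -0.17 and -0.16 against -0.12 and -0.09 over all features. Tnfsf10 (TRAIL), a ligand that induces cell death, fell at 1 month by 0.90 after NiO (SE 0.16; adjusted p = 0.00108) and by 0.55 after C60 (adjusted p = 0.0233). Its NiO arrays, at -3.18 to -2.95, lay below the controls at -2.43 to -1.89. Ube2l6, the conjugating enzyme of ISG15, fell by 0.61 after NiO (adjusted p = 0.0175) and 0.58 after C60 (SE 0.18; adjusted p = 0.0306). Between the times, the effect of NiO was lower at 1 month for 13 of the 38 and higher for none, against 23.1% and 14.4% of all features.

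Of 19 genes of sensing and signalling, 1 rose and 2 fell after NiO at 3 days, against 11.1% and 7.86% of all features. At 1 month 5 rose and 3 fell, against 11.9% and 18.9%. Sting1, which relays the sensing of DNA, rose by 0.98 at 3 days (SE 0.15; adjusted p = 0.000275), with values of -0.51, -0.58, -0.91 and -0.56 against -1.65, -1.68 and -1.53 in control. Both C60 arrays of 3 days used read -1.18 for Sting1, also above every control. After NiO, Sting1 rose by 0.59 at 1 month (adjusted p = 0.00517). Irf2, which opposes Irf1 at shared sites, was called lower at 3 days (-0.81; SE 0.21; adjusted p = 0.0162). Only 2 of the 4 NiO arrays measured it well above background, and NiO array 1, at -3.98, lay within the control range of -4.18 to -3.57, so the size of this difference is uncertain. Ikbke, a kinase that activates interferon regulatory factors, rose by 0.77 at 1 month after NiO (SE 0.20; adjusted p = 0.00978). After C60, none of the 19 was called at 3 days, and 2 rose and 2 fell at 1 month, against 7.29% and 12.4% of all features.

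Of 30 other class I pathway genes measured, 1 rose after NiO at 3 days, against 11.1% of all features. At 1 month 4 rose and 2 fell, against 11.9% and 18.9%. After C60, 1 fell at 3 days, against 1.99% of all features, and 7 rose and 1 fell at 1 month, against 7.29% and 12.4%. The RT1 genes of this list, RT1-CE2 among those that rose, also count in the 15 given above. Psmb9, a subunit of the immunoproteasome, was the gene lower at 3 days, with 4.05 and 3.89 in C60 against 4.57, 4.63 and 4.59 in control (-0.63; SE 0.14; adjusted p = 0.0121). The chaperone Canx, which folds heavy chains, fell at 1 month by 1.05 after NiO and 1.10 after C60, and the related Calr rose by 0.69 and 0.66. Canx controls were spread from -1.27 to 0.39. Lnpep, an aminopeptidase that trims peptides for cross-presentation, was called lower after NiO at 1 month (-1.92; SE 0.62; adjusted p = 0.0269), with NiO arrays at -2.18 to -1.91 and controls at 0.54, 1.90, -2.09 and -1.08. Control array 3 lay within the NiO range, and controls 1 and 2 stood high. Of the interferons and their receptors, 5 of 17 listed genes were measured, and none of these was called against control other than Ifng, given above.

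Of 10 macrophage and monocyte markers, 3 were higher after NiO at 3 days (Cd68, Ccr2 and Msr1), against 11.1% of all features, and 6 had positive values. At 1 month 5 of 10 were higher, against 11.9%. Their list mean was 0.45 to 0.51 in control and 0.71 to 1.18 in NiO at 3 days, and 0.42 to 0.64 and 0.86 to 1.53 at 1 month. Marco and Siglec1 were not measured. Of 8 neutrophil markers, Cd177 rose after NiO by 4.47 at 3 days and 2.41 at 1 month, and Cxcr2 fell by 1.12 at 1 month. These were the only calls, against 11.1% higher and 7.86% lower of all features at 3 days. At 1 month the shares of all features were 11.9% and 18.9%. Only 2 of the 8 had positive values at 3 days, with a median of -0.18 against 0.04 over all features. At 1 month 6 of 8 were positive, with a median of 0.18 against -0.12. Neutrophil list means, which include Cd177, were -1.64 to -1.14 in control and -1.29 to -0.86 in NiO at 3 days. At 1 month they were -1.90 to -1.39 and -1.92 to -0.76. Of 9 T cell markers, Cd2 rose after NiO at 3 days (0.69; adjusted p = 0.00277), with list means of -1.80 to -1.29 in control and -1.54 to -1.15 in NiO. Markers of plasmacytoid dendritic cells, which release type I interferon, were called for 0 of 6 at 3 days, with list means of -1.35 to -1.13 in control and -1.51 to -0.95 in NiO. At 1 month after NiO, 1 of 6 was higher (Il3ra, 0.85) and 1 lower (Tlr9, -0.46), against 11.9% and 18.9% of all features. This list shares Bst2 with the set and Tlr7 and Tlr9 with the sensing list, so it is not a separate measure of these cells. Lung tissue markers were lower for 4 of 12 and higher for 1 of 12 after NiO at 3 days, against 7.86% and 11.1% of all features. Their list means were 5.32 to 5.43 in control and 5.10 to 5.20 in NiO. The part of cell makeup in the values of the interferon genes was not tested.

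**Figure D5:**
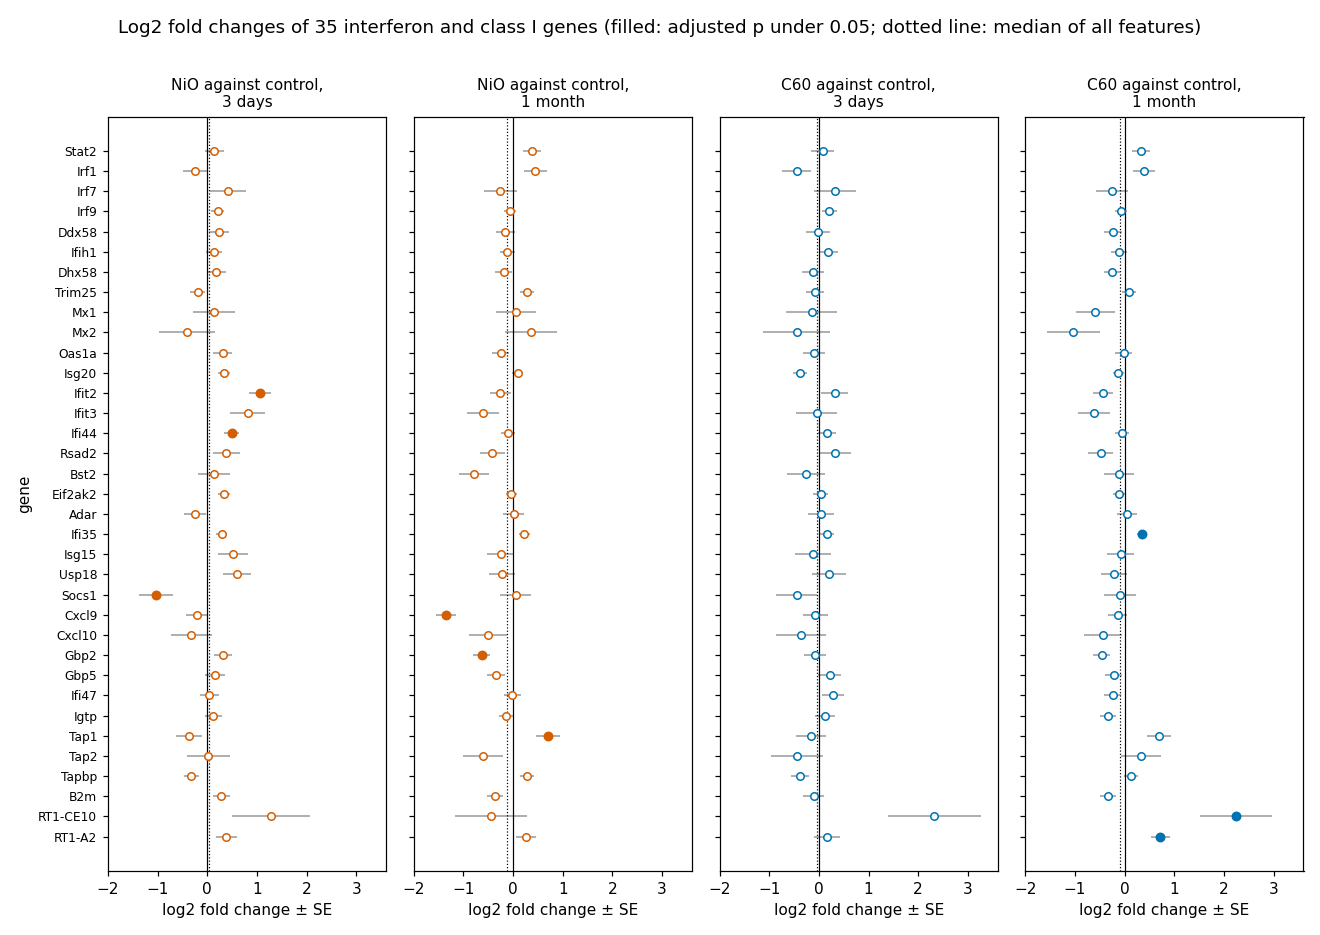
Log2 fold change with SE (horizontal axis) of the 35 genes (rows) in each comparison of a particle with control; filled dots are called and the dotted line is the median of all features. The genes called in none of the 8 comparisons (22 of 35) lie between -0.41 (Mx2) and 0.59 (Usp18) for NiO at 3 days. For NiO at 1 month they lie between -0.79 (Bst2) and 0.45 (Irf1). For C60 they lie between -0.45 (Mx2) and 0.32 (Irf7) at 3 days and between -1.03 (Mx2) and 0.385 (Irf1) at 1 month.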

How the data were processed

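Lung RNA was measured on 1-colour Agilent arrays, 1 array a sample. The deposited scanner files hold spot intensity, made with Feature Extraction 9.5.3.1, per the file headers: the processed signal is background subtracted and detrended, with no scaling between arrays. The deposited value table of the authors holds a linear ratio of each particle group over control, with unstated centring. It was used to see which C60 arrays of 3 days entered it and as an alternative. How the authors made the ratio is not stated in the labels or headers.

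Control spots were left out, spots of a probe averaged, and the log2 of the processed signal was taken minus the 75th percentile of the array. Probes (28677 of 41012) were kept where all used arrays of some group showed them well above background. The brightest kept probe stood for a gene. Symbols came from the array files and RefSeq. One limma fit (limma 3.58.1, R 4.3.3) covered 21 arrays in 6 groups, with 15 residual degrees of freedom, and p-values were adjusted by Benjamini-Hochberg over 24986 features. The number of arrays limits the precision. The method was tested on simulated data. Figures were drawn in Python 3.11.15 with matplotlib 3.10.9.

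The genes and lists were chosen with earlier results of these data known. Values in every group are given for members called in at least 1 comparison, and the others by range and count, with single values where an array stood apart. Of the other pathway lists, called genes with the largest changes are named, at most 5 a comparison. Alternatives were normexp, quantile normalization, no or a stricter filter on dim probes, the mean of probes, only the groups compared, trended and robust variance, other choices of arrays, each array left out, and the value table.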

Additional observations from a re-analysis of the deposited data

Results flagged for a closer look

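Of 140 sets of 1 gene in 1 group of 4 arrays, 10 held an array far from the other 3. Chance gives about 1 in 20 sets.

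Among NiO arrays of 1 month, array 4 read 4.47 for Bst2 (others 6.12 to 6.45), 0.40 for Tap2 (others 2.77 to 2.96) and 7.42 for B2m (others 7.67 to 7.68). Array 3 of that group read 0.60 for Ddx58 (others 0.48 to 0.50) and 3.05 for Trim25 (others 3.34 to 3.38), and array 1 read -1.50 for Stat2 (others -1.02 to -0.96). Control array 4 of 1 month read -1.54 for Ifih1 (others -1.21 to -1.18) and 1.69 for Mx2 (others -0.64 to -0.26). Ifi44 stood apart on NiO array 1 of 3 days at 3.28 (others 2.71 to 2.76) and on C60 array 3 of 1 month at 2.57 (others 3.00 to 3.03).

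The effect of NiO differed between 1 month and 3 days by the interaction in the limma fit for 8 genes. On the log2 scale the difference was -1.42 for Ifit3, -1.31 for Ifit2, -1.14 for Cxcl9, -0.96 for Gbp2, -0.65 for B2m, -0.60 for Ifi44, 0.60 for Tapbp and 1.06 for Tap1.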

How the results depend on the processing

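Of 19 calls of single genes under 351 alternatives, 261 kept direction and call, 89 lost the call and 1 reversed, and 4 calls were never lost. The reversal was B2m in the NiO effect between the times, at 0.022 with normexp. Counts of called genes are given as higher or lower. The share of all features called also depends on the setting and is not given beside them. A changed count is therefore not read as a result about the set. With normexp, NiO at 3 days had 0 lower, NiO at 1 month 2 higher, C60 at 1 month 1 lower, and the NiO effect between the times 1 higher. With quantile normalization, NiO at 1 month had 0 higher and 4 lower, C60 at 1 month 2 lower, the NiO effect 3 lower and the C60 effect 1 lower. With no filter, NiO at 3 days had 1 higher and 0 lower. With all 4 C60 arrays of 3 days, C60 at 3 days had 1 lower, NiO against C60 4 higher, and the C60 effect 2 higher and 1 lower. With only the groups compared, NiO at 3 days had 1 higher and 0 lower, NiO at 1 month 2 higher, C60 at 1 month 1 higher, NiO against C60 0 higher at 3 days and 1 higher and 2 lower at 1 month, and the NiO effect 1 higher. With trended, robust variance, C60 at 1 month had 1 lower. Without NiO arrays 2 and 3, NiO at 3 days had 0 lower, NiO against C60 0 higher and the NiO effect 0 higher. The median of the set relative to all features moved by more than the spread for C60 at 3 days (0.036 with normexp and -0.12 with no filter, from -0.01), NiO against C60 at 3 days (0.22 without NiO arrays 2 and 3, from 0.07), the NiO effect (-0.066 with no filter and -0.32 without NiO arrays 2 and 3, from -0.19) and the C60 effect (0.19 with no filter and -0.16 with C60 array 3 added, from -0.07). The cause of these changes was not tested. With 1 array left out, counts ran from 1 to 4 higher and 0 to 5 lower for NiO at 3 days, 0 to 1 and 2 to 3 for NiO at 1 month, 0 and 0 for C60 at 3 days, 0 to 3 and 0 to 1 for C60 at 1 month, 0 to 2 and 0 to 1 for NiO against C60 at 3 days, 0 and 1 to 3 at 1 month, 0 to 6 and 3 to 6 for the NiO effect and 0 to 1 and 0 for the C60 effect. The relative medians then ran from 0.015 to 0.25, -0.06 to 0.08, -0.015 to 0.097, -0.087 to 0.014, -0.037 to 0.24, -0.047 to 0.14, -0.24 to -0.032 and -0.19 to 0.015 in the same order. Leaving out a C60 array of 3 days left 1, which is assumed to vary like the other groups. Adding C60 array 3 or 4 of 3 days was chosen after seeing the data. In the 250 bases before the start alone, an ISRE core stood in 61.3% of member promoters (8.12% of all) and a GAS in 29.0% (7.67% of all). No paired analysis was possible because the labels give no replicate numbers that groups share, and each slide held 1 group.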

Other observations

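C60 arrays 3 and 4 of 3 days, which entered no main comparison, lay outside the range of the 3 control arrays for several genes. Ifit2 read 1.98 and 1.93 against 0.85 to 1.18 in control, and Ifi44 read 2.86 and 2.90 against 2.31 to 2.47. Socs1 read -3.34 and -2.87 against -2.02 to -1.57. Among class I genes, Tapbp read 1.22 and 1.35 against 2.28 to 2.55, Tap1 1.15 and 1.44 against 1.86 to 2.02 and B2m 7.24 and 7.34 against 7.61 to 7.88. Irf7, at 2.71 and 2.74, and Isg20, at 2.70 and 2.61, lay within or near the control ranges of 2.35 to 2.99 and 2.67 to 2.89.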
